A study of Mus musculus with 8 samples.

Results

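Cholesterol and fatty acid synthesis was followed through 30 genes of the 54532 in the deposited count table, chosen by symbol. They comprise 7 enzymes of the mevalonate steps, 11 enzymes from squalene to cholesterol, 5 genes of sterol sensing and transport, and 7 enzymes that make, elongate or desaturate fatty acids. All 30 symbols were found, and all 30 passed the filter on low counts that left 12234 genes for testing. The cells were mouse bone marrow-derived macrophages (BMDMs), phagocytes grown in culture from bone marrow, and transcript levels were measured by bulk RNA sequencing.

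There were 4 groups of 2 libraries, numbered 1 and 3 in the labels. Cells of the group IL-4 then LPS were kept for 24 h with 20 ng/ml of interleukin 4 (IL-4), the cytokine that drives alternative activation of macrophages, then washed, then stimulated for 4 h with 100 ng/ml of lipopolysaccharide (LPS), a component of bacterial walls. LPS cells had only the 4 h with LPS, IL-4 cells only the 24 h with IL-4, each at the same dose, and control cells neither. Mouse strain, age and sex are not given in the sources used here. The 2 libraries of each group held transcripts of opposite sex and so cannot come from 1 animal, but the sources used here leave unstated if a number marks 1 animal across groups. All p-values measure the spread between these libraries, part of which may be technical.

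Cholesterol is built from acetyl-CoA through mevalonate, squalene and lanosterol. Its enzymes are encoded by targets of SREBP2, a transcription factor made from Srebf2 that stays bound to the membrane of the endoplasmic reticulum until Scap carries it to the Golgi for cleavage, and Insig1 and Insig2 hold Scap back when sterols are plentiful. SREBP1, made from Srebf1, acts in the same way on genes of fatty acid synthesis. In macrophages these pathways supply membranes and lipid mediators, and sterol intermediates and oxysterols feed back on inflammatory gene expression.

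Library totals ran from 7924932 to 9431852 counts, the lowest count of any of the 30 genes in a library was 8, and mitochondrial transcripts took 1.07% to 1.27% of counts with LPS, against 1.48% to 1.61% without. Levels are given as CPM, counts scaled to the library total multiplied by its trimmed mean of M-values (TMM) factor. These factors were 0.786 to 0.866 in libraries with LPS and 1.17 to 1.25 in those without. Differences in CPM between them therefore rest on the factors as well as on the counts. Tnf, Il1b, Nos2 and Cxcl10 mark an LPS response. Together they reached at least 12433 CPM in each library with LPS and at most 81.2 CPM in each library without. Retnla, Chil3, Mgl2 and Arg1, which mark an IL-4 response, together reached at least 215 CPM in each library with IL-4 and at most 4.41 CPM in each library without. The 8 macrophage markers summed to 12096 to 25034 CPM, and lymphocyte, neutrophil, adipocyte and erythroid lists summed to at most 0.829 CPM each in every library. Summed stromal markers reached 17.1 to 46.1 CPM with LPS, against 3.66 to 4.67 CPM without, most of it from Pdgfrb, while Col1a1 and Col1a2 held 6 to 23 counts per library throughout. Summed dendritic cell markers reached 6.36 to 13.6 CPM with LPS, against 0.593 to 1.34 CPM without. Both lists and the mitochondrial share moved with LPS, as did the results below, and their part in those results was not tested. The 2 libraries of a group differed far beyond counting noise. Libraries numbered 3 held 543 to 643 counts of the Y-linked gene Ddx3y and none of Xist, the RNA of the inactive X chromosome. Libraries numbered 1 held 2936 to 4465 counts of Xist and none of Ddx3y. Replicate number and sex of the cells therefore cannot be told apart.

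Promoter sequences of the module were read from RefSeq's GRCm38.p6 annotation, as windows from 250 bases before to 50 bases from a gene's start. Windows were found for 25 of the 30 genes. Sqle, Fdft1, Fdps, Fads1 and Stard4 were not among them. Shown are the windows of Hmgcs1, the entry enzyme to mevalonate, Mvd, the gene that differed most between replicate numbers, Fasn and Dhcr7, which fell with LPS, and Insig1, the sterol sensor. Capitals mark any of 3 motifs on either strand, namely the SREBP-type motif TCACNCCAC (reverse GTGGNGTGA), CCAAT (reverse ATTGG), which the factor NF-Y binds, and the GC box GGGCGG (reverse CCGCCC), which Sp1 binds. CCAAT and its reverse overlap once, in Fasn. The windows lie at chr13:119690101-119690400 on the plus strand (Hmgcs1), chr8:122443373-122443672 on the minus strand (Mvd), chr11:120824498-120824797 on the minus strand (Fasn), chr7:143822917-143823216 and chr7:143829964-143830263 on the plus strand (windows 1 and 3 of Dhcr7), and chr5:28071162-28071461 on the plus strand (Insig1).
Hmgcs1: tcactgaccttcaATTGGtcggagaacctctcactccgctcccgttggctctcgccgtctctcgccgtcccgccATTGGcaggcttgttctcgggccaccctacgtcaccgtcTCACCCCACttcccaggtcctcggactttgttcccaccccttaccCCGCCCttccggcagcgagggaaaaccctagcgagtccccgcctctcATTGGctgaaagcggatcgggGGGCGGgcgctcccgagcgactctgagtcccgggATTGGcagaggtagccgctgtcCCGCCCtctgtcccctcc
Mvd: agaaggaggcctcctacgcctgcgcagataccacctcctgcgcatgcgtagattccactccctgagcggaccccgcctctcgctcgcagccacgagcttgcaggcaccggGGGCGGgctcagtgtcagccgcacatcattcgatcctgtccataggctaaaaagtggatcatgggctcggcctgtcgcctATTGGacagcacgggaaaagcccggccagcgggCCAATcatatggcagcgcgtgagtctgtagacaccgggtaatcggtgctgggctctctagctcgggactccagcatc
Fasn: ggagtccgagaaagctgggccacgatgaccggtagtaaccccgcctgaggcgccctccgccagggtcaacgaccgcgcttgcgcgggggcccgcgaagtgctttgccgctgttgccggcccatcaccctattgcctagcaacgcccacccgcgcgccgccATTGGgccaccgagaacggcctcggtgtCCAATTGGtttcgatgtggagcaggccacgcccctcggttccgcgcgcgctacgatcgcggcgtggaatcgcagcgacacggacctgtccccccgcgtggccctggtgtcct
Dhcr7, window 1: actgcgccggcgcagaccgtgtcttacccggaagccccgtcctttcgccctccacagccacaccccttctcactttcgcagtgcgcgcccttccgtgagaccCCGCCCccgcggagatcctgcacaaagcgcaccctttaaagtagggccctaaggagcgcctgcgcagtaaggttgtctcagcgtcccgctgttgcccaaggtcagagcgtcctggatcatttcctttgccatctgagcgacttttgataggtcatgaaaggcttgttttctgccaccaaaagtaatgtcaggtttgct
Dhcr7, window 3: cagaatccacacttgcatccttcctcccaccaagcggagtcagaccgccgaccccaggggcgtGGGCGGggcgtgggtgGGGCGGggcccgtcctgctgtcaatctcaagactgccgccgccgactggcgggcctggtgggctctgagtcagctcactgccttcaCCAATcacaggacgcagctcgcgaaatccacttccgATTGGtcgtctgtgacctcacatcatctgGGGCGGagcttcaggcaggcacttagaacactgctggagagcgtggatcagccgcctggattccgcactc
Insig1: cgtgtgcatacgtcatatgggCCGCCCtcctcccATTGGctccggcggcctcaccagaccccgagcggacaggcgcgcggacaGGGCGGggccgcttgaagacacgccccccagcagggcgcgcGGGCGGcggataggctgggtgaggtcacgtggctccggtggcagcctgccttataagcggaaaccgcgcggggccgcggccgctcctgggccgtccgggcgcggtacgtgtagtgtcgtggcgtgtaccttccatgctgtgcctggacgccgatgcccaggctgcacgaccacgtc

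The SREBP-type motif stood in 1 of the 25 genes, Hmgcs1, where it begins at position -137 from the start. It stood in 1.44% of the 27025 genes with a window. CCAAT stood in 20 of the 25 genes, against 41.1% of all genes with a window and 43% of the 9131 of them that were tested here. The GC box also stood in 20 of the 25, against 38.2% of all genes and 68.9% of tested genes. Both stood together in 17 of the 25, against 15.8% of all genes and 29.9% of tested genes. These are matches of letters in a fixed window and say nothing of binding.

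Levels per kilobase of the deposited gene length spanned a wide range in control cells. Elovl1, which elongates very long saturated fatty acids, stood highest at 66.0 CPM per kb, followed by Insig1 at 41.8 CPM per kb, Srebf2 at 36.2 CPM per kb and Fads1 at 35.8 CPM per kb. Cyp51, Hmgcs1, Msmo1 and Sqle held 25.8 to 28.6 CPM per kb, and the lowest levels were 0.852 CPM per kb for Elovl6 and 0.856 CPM per kb for Fdps. Some levels are uncertain because exons overlap those of other genes and strand use in counting is not given. Fdft1 shares 774 exon bases with Ctsb on the other strand, whose 1078712 counts over the 8 libraries stand against 4099 for Fdft1. Fdps shares 1124 exon bases with Gm43738 on the same strand, and held only 265 counts in all. Tm7sf2 (768 counts) shares 532 exon bases with Vps51 (230 counts), and Cyp51 (10356 counts) 166 with Akap9 (3328 counts). Scap (4063 counts) shares 985 with 5830462I19Rik, which held only 7 counts. Hmgcs1, Lss and Idi1 share 557, 381 and 323 exon bases with genes that held 3, 6 and 0 counts. Elovl1 and Elovl6 share 53 and 34.

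**Figure D1:**
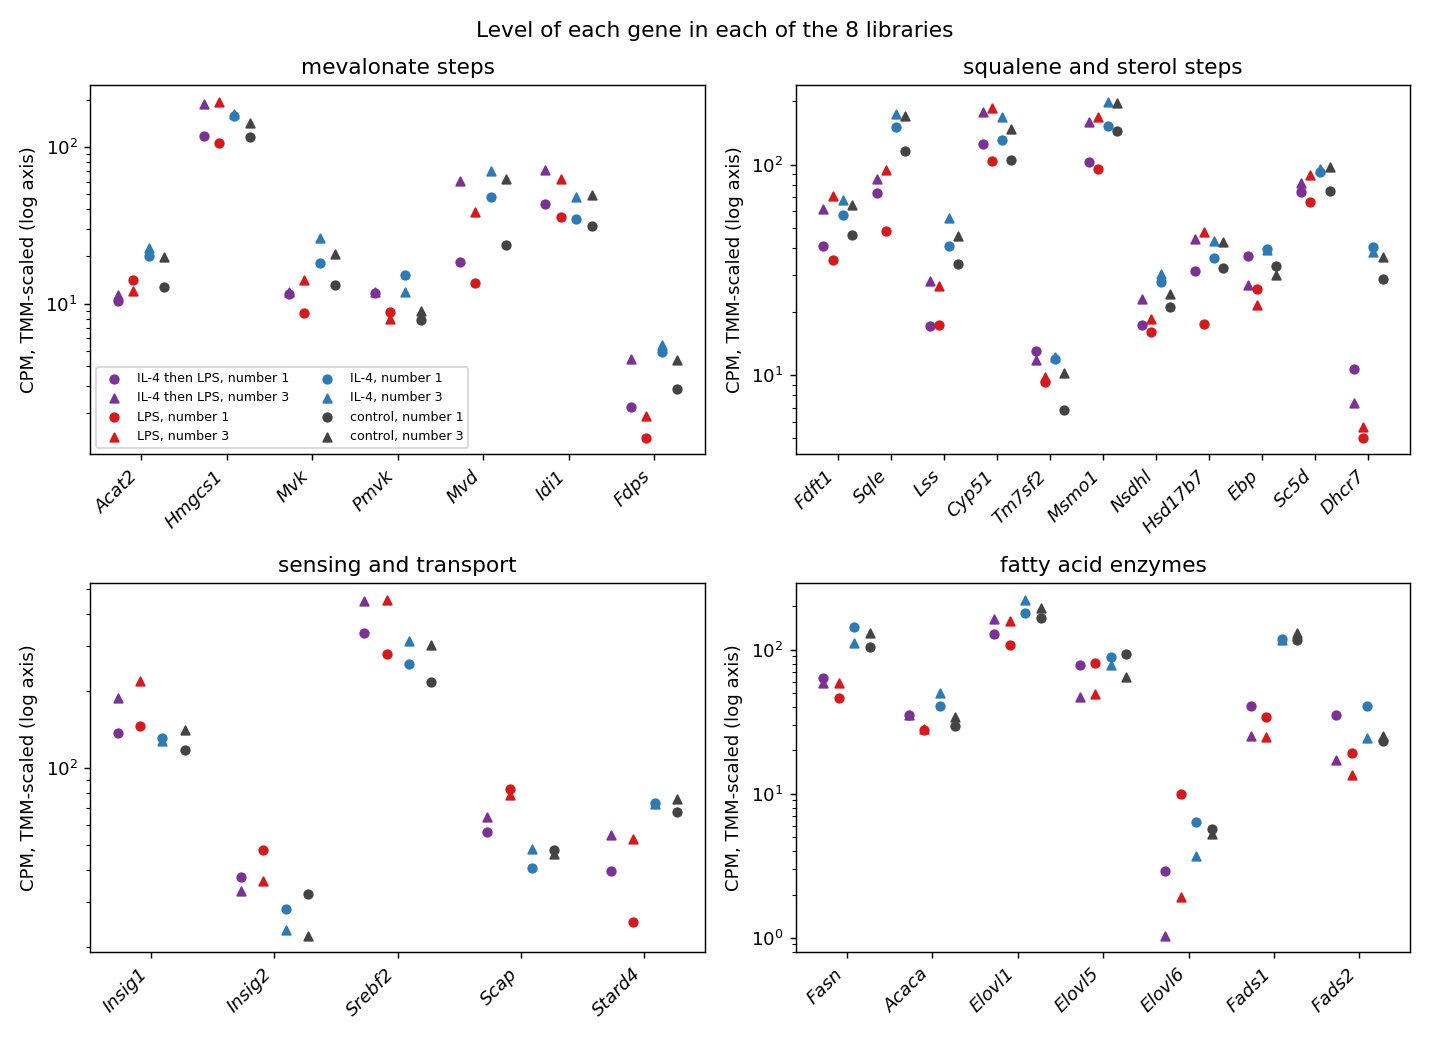
CPM of each of the 30 genes in each of the 8 libraries, on a log axis, in 4 panels by role; colours are groups and marker shapes are replicate numbers 3 and 1. Dhcr7 and Fads1 stand lower in all 4 libraries with LPS than in all 4 without, at 5.04 to 10.6 CPM with LPS for Dhcr7, against 28.5 to 40.4 CPM without.

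LPS was compared with its reference in cells without IL-4 (LPS against control) and in cells that had received IL-4 (IL-4 then LPS against IL-4, called LPS after IL-4 here), which share no library. In cells without IL-4, Dhcr7, Fads1, Fasn and Sqle fell and Scap rose, while the other 25 genes did not pass the test. In cells with IL-4, Dhcr7, Fads1, Fasn and Sqle again fell and Scap again rose, and Lss and Acat2 fell as well. Calls were made with edgeR's quasi-likelihood test at a Benjamini-Hochberg adjusted p under 0.05 over all 12234 genes. Of all genes tested, 21.8% rose and 18.6% fell in LPS against control, against 3.33% and 13.3% of the 30. In LPS after IL-4, 20.7% of all genes rose and 18.6% fell, against 3.33% and 20% of the 30. Because sex went with replicate number, the fit was also made with number as a block. Then 4 of 30 rose and 13 fell in LPS against control, where 28.2% of all genes rose and 25.5% fell, and 4 rose and 14 fell in LPS after IL-4, where 26% rose and 25.8% fell. The median log2 fold change was -0.30 over the 30 genes in LPS against control, against -0.01 over all genes tested, and -0.39 against -0.04 in the cells with IL-4. Leaving out 1 library at a time moved it between -0.42 and -0.06 in LPS against control, and between -0.53 and -0.27 in LPS after IL-4. Without number 3 of control cells the median of the 30 was -0.06, against -0.04 over all genes, and without number 1 of LPS cells it was -0.18, against -0.05. Groups did not overlap in 3 of 30 genes that were higher and 12 that were lower in LPS against control, where 35.9% and 36.7% of all genes did so, and in 4 higher and 16 lower in LPS after IL-4, where 34.8% and 36.9% did so. In bulk RNA, fewer cells of a kind and less RNA per cell cannot be told apart. Pairs of CPM values below are those of libraries 3 and 1 of a group.

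Among the mevalonate steps, none of the 7 genes passed without IL-4 and 1 fell with it, against 18.6% of all genes that fell in each arm. Acat2, the thiolase that joins acetyl-CoA units at the start of the pathway, held 11.4 and 10.4 CPM after IL-4 then LPS, against 22.7 and 20.2 CPM after IL-4 alone. It fell by 0.97 ± 0.24 (SE) on the log2 scale (edgeR adjusted p = 0.0149). That call was lost without number 3 of IL-4 cells, number 1 of IL-4 then LPS or number 3 of IL-4 then LPS, at edgeR adjusted p of 0.0803, 0.0753 and 0.0575. Without IL-4 its libraries overlapped, at 12.0 and 14.1 CPM in LPS cells, against 19.8 and 12.8 CPM in control cells, a log2 fold change of -0.31 ± 0.24 (edgeR adjusted p = 0.326). Hmgcs1, which makes HMG-CoA, showed no separation either, at 194 and 106 CPM in LPS cells, against 142 and 115 CPM in control cells (0.22 ± 0.31). With prior IL-4 it held 188 and 118 CPM with LPS, against 161 and 158 CPM without (-0.06 ± 0.31). In each pair of groups the LPS libraries lay on both sides of their references. Fdps, which makes farnesyl diphosphate, held 1.93 and 1.40 CPM in LPS cells, against 4.35 and 2.86 CPM in control cells (-1.10 ± 0.46, edgeR adjusted p = 0.0905). Mvk, mevalonate kinase, had a log2 fold change of -0.57 ± 0.32 without IL-4 and -0.91 ± 0.32 with it (edgeR adjusted p = 0.0542). Mvd, which decarboxylates mevalonate diphosphate, had values of -0.72 ± 0.68 and -0.58 ± 0.67, Idi1, the isopentenyl diphosphate isomerase, 0.29 ± 0.36 and 0.47 ± 0.36, and Pmvk, phosphomevalonate kinase, -0.00 ± 0.22 and -0.20 ± 0.21.

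From squalene to cholesterol, 2 of 11 genes fell without IL-4 and 3 of 11 with it, against 18.6% of all genes in each arm. None rose, against 21.8% of all genes without IL-4 and 20.7% with it. Dhcr7 reduces 7-dehydrocholesterol, the last step towards cholesterol in one branch of the pathway, and lies on chromosome 7, 143823145 to 143848410 (plus strand, mm10). It held 5.67 and 5.04 CPM in LPS cells, against 36.2 and 28.5 CPM in control cells. After IL-4 it held 7.40 and 10.6 CPM with LPS, against 38.3 and 40.4 CPM without. The groups lay far apart in both arms, and Dhcr7 fell by 2.59 ± 0.23 on the log2 scale without IL-4 (edgeR adjusted p = 0.000102), a 6.02-fold difference. With IL-4 it fell by 2.13 ± 0.22 (edgeR adjusted p = 0.000215). Its difference was of like size in both replicate numbers, at -2.68 in number 3 and -2.50 in number 1 without IL-4.

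Sqle, squalene epoxidase (chromosome 15, 59315077 to 59331192, plus strand), held 94.0 and 48.6 CPM in LPS cells, against 170 and 116 CPM in control cells. After IL-4 it held 85.5 and 72.9 CPM with LPS, against 174 and 151 CPM without. Groups did not overlap in either arm, and Sqle fell by 1.0 ± 0.31 (edgeR adjusted p = 0.0335) and by 1.04 ± 0.31 (edgeR adjusted p = 0.0305) on the log2 scale. Either call was lost when single libraries were left out. Without IL-4 it was lost without number 3 of control cells (edgeR adjusted p = 0.158, log2 fold change -0.74) or number 1 of LPS cells (edgeR adjusted p = 0.119, log2 fold change -0.61), and with IL-4 it was lost without any 1 of the 4 libraries compared, at edgeR adjusted p up to 0.135. Lss, lanosterol synthase (chromosome 10, 76531588 to 76557138, plus strand), held 28.0 and 17.1 CPM after IL-4 then LPS, against 55.8 and 40.9 CPM after IL-4 alone, and fell by 1.10 ± 0.31 on the log2 scale (edgeR adjusted p = 0.0259). Without number 3 of IL-4 cells its edgeR adjusted p was 0.141, and without number 1 of IL-4 then LPS it was 0.131. In LPS cells Lss held 26.5 and 17.2 CPM, against 46.0 and 33.8 CPM in control cells, and did not pass (-0.87 ± 0.31, edgeR adjusted p = 0.0592).

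The remaining sterol enzymes did not pass in either arm without a block. Cyp51, the lanosterol demethylase, held 185 and 104 CPM in LPS cells, against 148 and 105 CPM in control cells (0.19 ± 0.31), and its log2 fold change after IL-4 was 0.02 ± 0.31. Fdft1, squalene synthase, had -0.05 ± 0.34 without IL-4 and -0.30 ± 0.34 with it. Nsdhl and Msmo1, which remove methyl groups from lanosterol's ring, had -0.39 ± 0.19 and -0.36 ± 0.32 without IL-4, and -0.52 ± 0.19 and -0.43 ± 0.32 with it. Hsd17b7, which completes that demethylation, had -0.19 ± 0.42 without IL-4 and -0.07 ± 0.41 with it. Ebp, the sterol isomerase, had -0.41 ± 0.19 and -0.31 ± 0.18, Sc5d, which precedes Dhcr7 in the pathway, -0.14 ± 0.18 and -0.27 ± 0.18, and Tm7sf2, a sterol reductase, 0.17 ± 0.24 and 0.03 ± 0.23.

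Among genes of sensing and transport, 1 of 5 rose in each arm, against 21.8% and 20.7% of all genes, and none fell. Scap, the escort of SREBP (chromosome 9, 110333288 to 110384950, plus strand), held 78.9 and 83.3 CPM in LPS cells, against 46.1 and 47.9 CPM in control cells. It rose by 0.79 ± 0.14 on the log2 scale, or 1.73-fold (edgeR adjusted p = 0.00306). In cells with IL-4 it held 64.6 and 56.6 CPM with LPS, against 48.6 and 40.7 CPM without, and rose by 0.44 ± 0.14 (edgeR adjusted p = 0.0377). Of 8 fits that each left out 1 library, the call in cells with IL-4 was kept in 1, without number 3 of IL-4 cells, and edgeR adjusted p ran up to 0.231 in the others. Scaling by library totals alone ended both calls, with a log2 fold change of 0.18 without IL-4 (edgeR adjusted p = 0.246) and -0.08 with it (edgeR adjusted p = 0.619). That scaling also moved all genes, to a median of -0.62 without IL-4 and -0.56 with it, so Scap lay above the median of all genes there too. In cells with IL-4 its call also ended with upper-quartile factors (0.19, edgeR adjusted p = 0.275) and with every gene that had a read (0.40, edgeR adjusted p = 0.136). DESeq2 ended it as well (0.46, DESeq2 adjusted p = 0.0593).

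The sterol sensors and the SREBP2 gene lay higher with LPS in both replicate numbers of both arms, short of the threshold in the fit without a block. Insig1 held 218 and 146 CPM in LPS cells, against 141 and 118 CPM in control cells (0.49 ± 0.23, edgeR adjusted p = 0.12), and after IL-4 187 and 137 CPM with LPS, against 128 and 131 CPM without (0.33 ± 0.23). Insig2 held 36.5 and 48.2 CPM in LPS cells, against 22.3 and 32.4 CPM in control cells (0.63 ± 0.23, edgeR adjusted p = 0.0589), and had 0.46 ± 0.23 after IL-4. Srebf2 held 454 and 279 CPM in LPS cells, against 303 and 217 CPM in control cells (0.50 ± 0.28), and had 0.47 ± 0.28 after IL-4. For Insig1, Insig2 and Srebf2 the groups did not overlap, except Srebf2 without IL-4, and with library totals alone Insig1 and Srebf2 had negative values in both arms and Insig2 in the arm with IL-4. Stard4, a cytosolic carrier of cholesterol, had negative values, at 52.8 and 25.2 CPM in LPS cells, against 75.9 and 67.7 CPM in control cells (-0.88 ± 0.31, edgeR adjusted p = 0.0554), and -0.62 ± 0.31 after IL-4. With number as a block, Insig1 (edgeR adjusted p = 0.0199), Insig2 (edgeR adjusted p = 0.00283), Srebf2 (edgeR adjusted p = 0.00677) and Stard4 (edgeR adjusted p = 0.00608) passed in LPS against control, and all but Insig1 passed in LPS after IL-4.

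Of the 7 fatty acid enzymes, 2 fell in each arm, against 18.6% of all genes, and none rose. Fads1, the desaturase whose product is arachidonic acid (chromosome 19, 10182888 to 10196870, plus strand), held 24.6 and 33.9 CPM in LPS cells, against 130 and 117 CPM in control cells. With prior IL-4 it held 25.3 and 40.8 CPM with LPS, against 117 and 118 CPM without. Fads1 fell by 2.08 ± 0.24 on the log2 scale (edgeR adjusted p = 0.000383) and by 1.83 ± 0.24 (edgeR adjusted p = 0.00072), with groups well apart. Fasn, the fatty acid synthase (chromosome 11, 120805846 to 120824547, minus strand), held 58.4 and 46.1 CPM in LPS cells, against 130 and 104 CPM in control cells. After IL-4 it held 58.5 and 63.6 CPM with LPS, against 111 and 143 CPM without. It fell by 1.16 ± 0.19 (edgeR adjusted p = 0.00216) and by 1.05 ± 0.19 on the log2 scale (edgeR adjusted p = 0.00356). Dhcr7, Fads1 and Fasn passed in each of the 8 fits that left out 1 library, in both arms.

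Fads2, a desaturase that acts earlier on the same chains, did not pass. It held 13.4 and 19.3 CPM in LPS cells, against 25.3 and 23.4 CPM in control cells (-0.57 ± 0.38, edgeR adjusted p = 0.261), and 17.3 and 35.4 CPM after IL-4 then LPS, against 24.3 and 40.8 CPM after IL-4 alone (-0.31 ± 0.37). Acaca, which makes malonyl-CoA for Fasn, had -0.19 ± 0.16 without IL-4 and -0.36 ± 0.15 with it. The elongases Elovl1 and Elovl5 had -0.43 ± 0.22 and -0.28 ± 0.31 without IL-4, and -0.47 ± 0.22 and -0.42 ± 0.31 with it. Elovl6, which extends palmitate, was the least certain, at 1.93 and 9.94 CPM in LPS cells, against 5.24 and 5.71 CPM in control cells (0.11 ± 0.69) and -1.36 ± 0.77 after IL-4.

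When the LPS effect was averaged over both arms, a contrast added after the data were seen, 12 of 30 genes fell and 2 rose. Of all genes, 27.7% fell and another 27.7% rose. Beside the 6 named above, Mvk, Fdps, Nsdhl, Ebp, Stard4 and Elovl1 fell, by 0.36 to 0.87 on the log2 scale, and Insig2 rose by 0.54 ± 0.16 (edgeR adjusted p = 0.0216) beside Scap. Within replicate numbers, 17 of 30 genes were lower with LPS in both numbers without IL-4 and 20 of 30 with it, against 41.4% and 42.6% of all genes. Higher in both numbers were 5 of 30 in each arm, against 40.4% of all genes without IL-4 and 39.2% with it. With number as a block, the genes that fell beside Stard4 and those called without the block were Mvk, Mvd, Fdps, Lss, Msmo1, Nsdhl, Ebp and Elovl1 in LPS against control, at edgeR adjusted p of 0.000408 (Lss) to 0.0448 (Nsdhl). In LPS after IL-4 they were Mvk, Mvd, Msmo1, Nsdhl, Acaca, Elovl1 and Elovl5, at 0.00381 (Mvk) to 0.0387 (Acaca), and Idi1 rose.

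**Figure D2:**
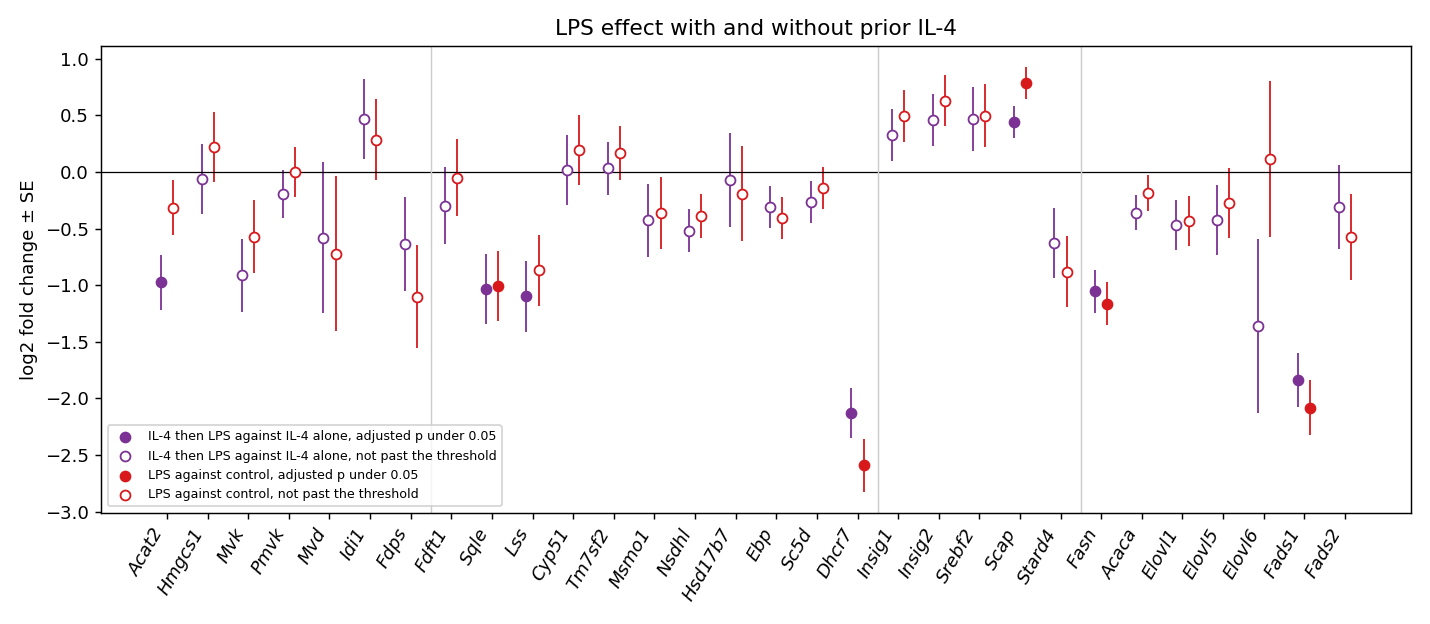
Log2 fold change with LPS of each of the 30 genes (points, with bars of 1 SE), without and with prior IL-4; filled points passed an edgeR adjusted p under 0.05 and open points did not. Dhcr7 and Fads1 lie lowest, at -2.59 and -2.08 without IL-4, while Scap, Srebf2, Insig1 and Insig2 lie above 0 in both arms, which with library totals alone held only for Scap and Insig2 without IL-4.

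Other genes of the pathways were counted from lists chosen with earlier results of these data known. Of 24 other lipid synthesis genes, 19 were tested. In LPS against control 3 rose and 5 fell, where 21.8% and 18.6% of all genes did so. Scd2, a stearoyl-CoA desaturase, held 13.5 and 21.4 CPM in LPS cells, against 166 and 193 CPM in control cells, and fell by 3.36 ± 0.45 on the log2 scale (edgeR adjusted p = 0.000775). After IL-4 it fell by 3.32 ± 0.44 (edgeR adjusted p = 0.000794). Its paralog Scd1 did not pass, at 0.22 ± 0.36 without IL-4 and -0.00 ± 0.35 with it. Acss2, which activates acetate, fell by 1.12 ± 0.32 and 1.20 ± 0.32, and Hacd4, a dehydratase of very long chain elongation, by 0.95 ± 0.25 and 1.0 ± 0.25. After IL-4, 2 of the 19 rose and 4 fell, where 20.7% and 18.6% of all genes did so.

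Of all genes tested, 21.8% rose without IL-4 and 20.7% with it, and 18.6% fell in each arm. Of 11 genes that process or degrade SREBP and its partners, 2 rose in each arm (18.2%) and none fell. They were Rnf139 and Rnf145, ubiquitin ligases of the endoplasmic reticulum, the second of which marks Scap in mouse liver. Rnf145 held 199 and 177 CPM in LPS cells, against 37.3 and 35.6 CPM in control cells (2.37 ± 0.13, edgeR adjusted p = 1.59e-05). Rnf139 held 131 and 134 CPM in LPS cells, against 32.7 and 33.6 CPM in control cells (2.0 ± 0.14). After IL-4 the log2 fold changes were 2.39 ± 0.14 and 2.06 ± 0.14. Srebf1 did not pass, at 85.1 and 86.4 CPM in LPS cells, against 91.4 and 87.5 CPM in control cells (-0.06 ± 0.12), and -0.18 ± 0.12 after IL-4.

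Of 14 genes of sterol uptake, export, esterification and oxidation, 3 rose and 3 fell in LPS against control, and 3 rose and 4 fell after IL-4. Of all genes, 21.8% rose and 18.6% fell in LPS against control, and 20.7% and 18.6% after IL-4. Ch25h, which makes the oxysterol 25-hydroxycholesterol, rose (edgeR adjusted p = 0.000275) to 29.3 and 73.2 CPM in LPS cells, against 2 and 0 counts in control cells. Soat1, which esterifies cholesterol, fell by 1.96 ± 0.16 without IL-4 and 1.96 ± 0.15 with it, to 121 and 143 CPM in LPS cells, against 533 and 497 CPM in control cells. Mylip, a ubiquitin ligase, fell by 1.12 ± 0.22 without IL-4 and 0.75 ± 0.22 with it, and Npc1, the lysosomal exporter of cholesterol, by 1.05 ± 0.13 and 0.95 ± 0.13.

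IL-4 was compared with its reference in cells without LPS (IL-4 against control) and in cells that then received LPS (IL-4 then LPS against LPS alone). None of the 30 genes passed in either comparison with edgeR, nor with DESeq2, and 2 of 30 had an unadjusted p under 0.05 in each, as had 7.29% of all genes in IL-4 against control and 8.5% in IL-4 then LPS against LPS alone. Few genes passed at all, with 0.0572% of genes tested higher and 0.00817% lower in IL-4 against control, and 0.049% higher and 0.0163% lower in IL-4 then LPS against LPS alone. The median log2 fold change was 0.19 over the 30 genes, against -0.00 over all genes, in IL-4 against control, and 0.14 against -0.03 with LPS. The sign of these medians rested on single libraries. In IL-4 against control the median was -0.01 without number 1 of control cells, 0.06 without number 3 of IL-4 cells and 0.40 without number 3 of control cells. In IL-4 then LPS against LPS alone it was -0.13 without number 1 of LPS cells, -0.06 without number 3 of IL-4 then LPS, 0.28 without number 1 of IL-4 then LPS and 0.42 without number 3 of LPS cells. Groups did not overlap in 9 of 30 genes in IL-4 against control, all of them higher, against 19.4% of all genes higher and 19.2% lower. In IL-4 then LPS against LPS alone 7 of 30 were higher and 2 lower without overlap, against 16.6% and 19.8% of all genes. In IL-4 against control 26 of 30 values were positive, and 19 of 30 genes were higher in both replicate numbers while none was lower in both, against 32.4% of all genes in each direction. With LPS 22 of 30 were positive, and 14 of 30 were higher and 6 lower in both numbers, against 28.8% and 35.2% of all genes. Genes of a module share the same libraries, so these counts are not of independent observations.

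All 7 enzymes of the mevalonate steps and all 11 of the sterol steps had positive values in IL-4 against control, none past the threshold. Pmvk held 11.8 and 15.3 CPM in IL-4 cells, against 9.0 and 7.88 CPM in control cells (0.68 ± 0.21, edgeR adjusted p = 0.508). With LPS it held 11.9 and 11.7 CPM after IL-4, against 8.01 and 8.82 CPM in LPS cells (0.49 ± 0.22). Its groups did not overlap in either comparison. Tm7sf2 held 12.2 and 12.0 CPM in IL-4 cells, against 10.2 and 6.84 CPM in control cells (0.51 ± 0.23), and Fdps 5.44 and 4.91 CPM, against 4.35 and 2.86 CPM (0.52 ± 0.40), with 0.99 ± 0.47 for Fdps when LPS followed. Dhcr7, at 38.3 and 40.4 CPM in IL-4 cells, against 36.2 and 28.5 CPM in control cells (0.28 ± 0.20), held 7.40 and 10.6 CPM after IL-4 then LPS, against 5.67 and 5.04 CPM in LPS cells (0.75 ± 0.24, edgeR adjusted p = 0.444). Small values were those of Idi1 (0.04 ± 0.36) and Msmo1 (0.05 ± 0.32) in IL-4 against control, and of Hmgcs1 (0.03 ± 0.31) and Sc5d (0.01 ± 0.19) with LPS. Hmgcs1 had 0.31 ± 0.31 without LPS, at 161 and 158 CPM in IL-4 cells, against 142 and 115 CPM in control cells. Sqle had 0.18 ± 0.30 without LPS and 0.15 ± 0.31 with it.

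None of the 5 genes of sensing and transport passed with IL-4. Stard4 had 0.02 ± 0.30 in IL-4 against control and 0.28 ± 0.31 in IL-4 then LPS against LPS alone. Insig1 had 0.00 ± 0.23, Insig2 -0.08 ± 0.23 and Srebf2 0.13 ± 0.28 in IL-4 against control, and -0.16 ± 0.23, -0.26 ± 0.23 and 0.10 ± 0.28 in IL-4 then LPS against LPS alone. Scap had the largest value of the 5 with LPS, at 64.6 and 56.6 CPM after IL-4 then LPS, against 78.9 and 83.3 CPM in LPS cells (-0.42 ± 0.14, edgeR adjusted p = 0.455). The groups did not overlap there. Among fatty acid enzymes, Acaca held 49.7 and 40.7 CPM in IL-4 cells, against 34.3 and 29.3 CPM in control cells (0.51 ± 0.15, edgeR adjusted p = 0.489), and 35.2 and 35.3 CPM after IL-4 then LPS, against 28.3 and 27.6 CPM in LPS cells (0.33 ± 0.16). Its libraries with IL-4 stood above those without in both comparisons. Fasn had 0.11 ± 0.19 and 0.22 ± 0.19, Fads1 -0.07 ± 0.23 and 0.18 ± 0.24, Fads2 0.42 ± 0.37 and 0.68 ± 0.38, and Elovl5 0.08 ± 0.31 and -0.06 ± 0.31. Elovl6 had -0.12 ± 0.68 without LPS and -1.60 ± 0.78 with it, on 8 to 71 counts a library.

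**Figure D3:**
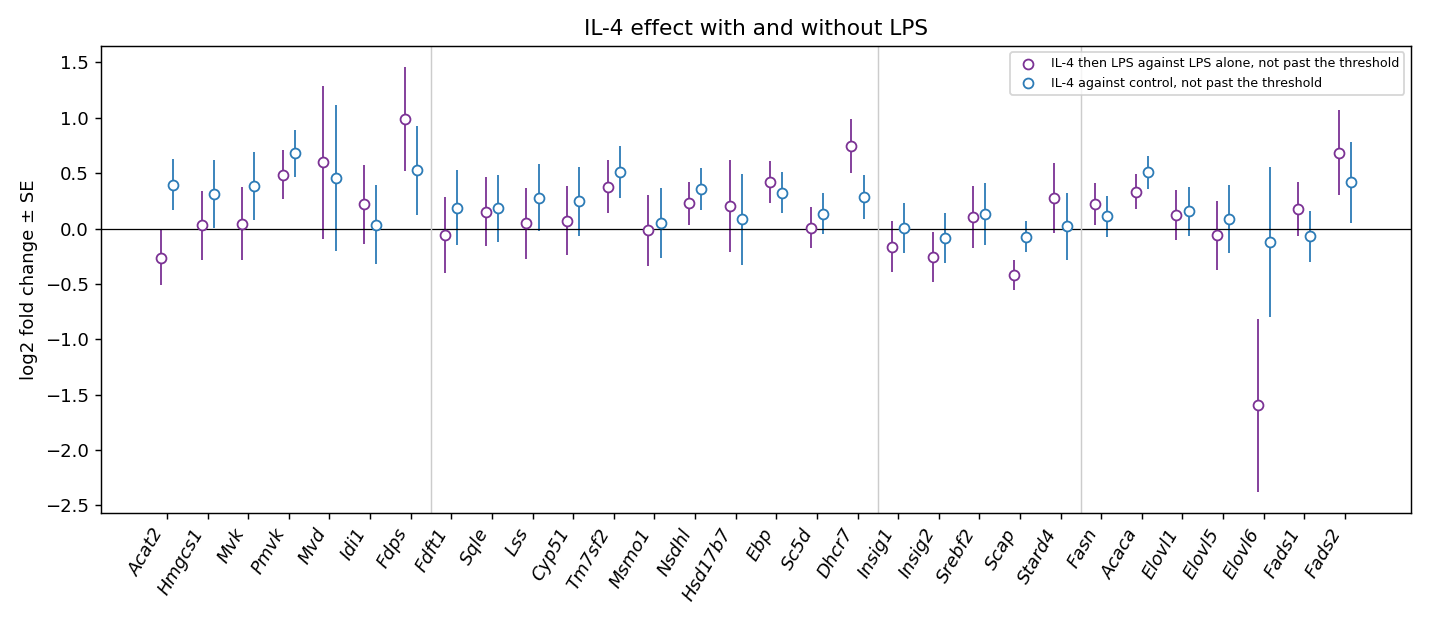
Log2 fold change with IL-4 of each of the 30 genes (points, with bars of 1 SE), without LPS and before LPS; all points are open because none passed an edgeR adjusted p under 0.05. Of the points, 26 of 30 are positive without LPS and 22 of 30 before LPS, with medians that change sign when single libraries are left out.

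Averaged over cells with and without LPS, IL-4 again gave no call among the 30 by edgeR without a block. There 0.376% of genes tested were called higher and 0.294% lower. With number as a block 1 fatty acid enzyme rose, against 3.21% of all genes. At an unadjusted p under 0.05 were 7 of the 30, against 13.1% of all genes. The 2 with the smallest p were Acaca (0.42 ± 0.11, edgeR adjusted p = 0.177) and Pmvk (0.58 ± 0.15, edgeR adjusted p = 0.178). Others of the largest in their role were Fdps (0.76 ± 0.31), Dhcr7 (0.52 ± 0.16), Scap (-0.25 ± 0.10) and Elovl6 (-0.86 ± 0.52). Near 0 were Acat2 (0.07 ± 0.17), Msmo1 (0.02 ± 0.23), Insig1 (-0.08 ± 0.16) and Elovl5 (0.01 ± 0.22). Hmgcs1 had 0.17 ± 0.22, Sqle 0.17 ± 0.22, Insig2 -0.17 ± 0.16, Srebf2 0.11 ± 0.20, Fasn 0.17 ± 0.13 and Fads2 0.55 ± 0.27.

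None of the other lipid synthesis, SREBP processing or sterol handling genes was called in either IL-4 comparison by edgeR without a block. With number as a block, 1 of the lipid synthesis genes rose and 1 of the sterol handling genes fell in each comparison. Of all genes, 1.5% rose and 0.858% fell then in IL-4 against control, and 1.08% and 1.22% with LPS. In the averaged IL-4 effect with the block, 3, 0 and 1 genes of these lists rose and 2, 1 and 3 fell. Of all genes, 3.21% rose and 3.28% fell there. At an unadjusted p under 0.05 without the block, these lists held 2, 1 and 3 genes, of 19, 11 and 14 tested, in IL-4 against control. In IL-4 then LPS against LPS alone they held 2, 1 and 1. Of all genes, 7.29% and 8.5% did so. Scd1, the other stearoyl-CoA desaturase, held 67.8 and 115 CPM in IL-4 cells, against 28.7 and 35.4 CPM in control cells (1.51 ± 0.36, edgeR adjusted p = 0.299), and 64.4 and 118 CPM after IL-4 then LPS, against 29.8 and 44.9 CPM in LPS cells (1.28 ± 0.36, edgeR adjusted p = 0.369). Its libraries with IL-4 all lay above those without. Scd2 had 0.72 ± 0.40 and 0.77 ± 0.44, and Srebf1 0.06 ± 0.12 and -0.06 ± 0.12. None of the 8 macrophage markers passed in either IL-4 comparison by edgeR without a block, with 1 at an unadjusted p under 0.05 in each. With number as a block 1 of the 8 fell in each. In the averaged IL-4 effect 1 of the 8 fell, against 0.294% of all genes, and with number as a block 4 fell, against 3.28%. The 8 summed to 17555 and 12561 CPM in IL-4 cells, against 25034 and 18068 CPM in control cells. Most of each sum was Lyz2, at 12806 and 8662 CPM, against 19576 and 13434 CPM. In IL-4 against control 6 of the 8 had negative values and 2, Itgam and Spi1, positive ones. The part of the markers in the values above was not tested.

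Whether prior IL-4 altered the response of the module to LPS was tested as the interaction, the log2 fold change with LPS after IL-4 minus that without. No gene of the 12234 passed by edgeR without a block (0% in either direction), and 322 had an unadjusted p under 0.05. With number as a block 1 gene was called lower, and DESeq2 called 4 genes higher and 1 lower. Of the 30, none had an unadjusted p under 0.05 and none passed with DESeq2. The values for the genes with the largest LPS response were 0.46 ± 0.31 for Dhcr7, 0.25 ± 0.33 for Fads1 and 0.11 ± 0.27 for Fasn. The largest among mevalonate, sensing and transport, and fatty acid genes were Acat2 (-0.66 ± 0.34), Scap (-0.35 ± 0.20) and Elovl6 (-1.47 ± 1.03). Small values were those of Mvd (0.14 ± 0.95), Sqle (-0.03 ± 0.43), Srebf2 (-0.03 ± 0.39) and Elovl1 (-0.04 ± 0.31). Hmgcs1 had -0.28 ± 0.44, Insig1 and Insig2 -0.17 ± 0.32 each, and Fads2 0.26 ± 0.53. Lss, which passed in one arm and not in the other, had -0.23 ± 0.44. Passing in one arm only, as Lss and Acat2 did, is therefore not shown to be a difference between the arms at this number of libraries.

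Replicate numbers differed in the module. With group and number in 1 edgeR fit, 12 of 30 genes were higher in number 3 than in number 1 and 2 were lower, against 5.98% of genes tested for higher and 7.41% for lower. Of the 12, 4 were mevalonate genes of 7 and 6 were sterol genes of 11. In number 3, 15 of 30 genes were higher in all 4 groups, against 18.3% of all genes, and 4 were lower in all 4, against 18.9%. The labels do not say what the number stands for, and sex of the cells, animal, culture and library cannot be told apart within it.

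Mvd differed most of the mevalonate genes, on chromosome 8, 122433601 to 122443422 (minus strand). It held 60.3 CPM in number 3 and 18.4 CPM in number 1 after IL-4 then LPS, 38.5 and 13.6 CPM after LPS, 69.9 and 48.1 CPM after IL-4, and 62.4 and 23.8 CPM in control cells. Number 3 was above number 1 in every group, by 1.24 ± 0.17 on the log2 scale (edgeR adjusted p = 0.00377) or 2.36-fold. Idi1 held 70.8 and 43.2 CPM after IL-4 then LPS, 62.6 and 35.6 CPM after LPS, 47.7 and 34.8 CPM after IL-4, and 49.3 and 31.3 CPM in control cells (0.66 ± 0.09, edgeR adjusted p = 0.00297). Mvk (0.50 ± 0.14) and Hmgcs1 (0.47 ± 0.13) were also higher. Acat2 (0.20 ± 0.15), Fdps (0.52 ± 0.24) and Pmvk (-0.08 ± 0.15) did not pass.

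The sterol genes that were higher in number 3 were Hsd17b7 (0.63 ± 0.17), Fdft1 (0.56 ± 0.12), Msmo1 (0.56 ± 0.09), Cyp51 (0.55 ± 0.09), Lss (0.54 ± 0.09) and Sqle (0.47 ± 0.12). Cyp51 held 178 and 125 CPM in numbers 3 and 1 after IL-4 then LPS, 185 and 104 CPM after LPS, 169 and 131 CPM after IL-4, and 148 and 105 CPM in control cells. Dhcr7, the gene that fell most with LPS, had 0.01 ± 0.14 between numbers, and the X-linked genes Ebp (-0.21 ± 0.10) and Nsdhl (0.23 ± 0.10) did not pass. Srebf2 was higher at 0.48 ± 0.08 (edgeR adjusted p = 0.0072), with 450 and 336 CPM after IL-4 then LPS, 454 and 279 CPM after LPS, 314 and 254 CPM after IL-4, and 303 and 217 CPM in control cells. Insig2 was lower (-0.35 ± 0.09, edgeR adjusted p = 0.0378), Insig1 had 0.31 ± 0.10 (edgeR adjusted p = 0.0748) and Scap 0.08 ± 0.09.

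Fatty acid enzymes did not share this direction as a group, with 1 of 7 higher and 1 lower. Elovl1 was higher in number 3 (0.36 ± 0.08, edgeR adjusted p = 0.019) and Elovl5, which elongates polyunsaturated chains, was lower (-0.52 ± 0.10, edgeR adjusted p = 0.0133). Elovl5 held 47.1 and 77.9 CPM in numbers 3 and 1 after IL-4 then LPS, 49.3 and 80.9 CPM after LPS, 78.7 and 88.4 CPM after IL-4, and 64.8 and 92.9 CPM in control cells. Fasn had 0.04 ± 0.12, Fads2 -0.54 ± 0.17 and Elovl6 -1.02 ± 0.34 (edgeR adjusted p = 0.0807). Of the 19 other lipid synthesis genes, 2 were higher in number 3 and 5 lower. Of the 14 sterol handling genes, 2 were higher and 1 lower, where 5.98% and 7.41% of all genes were so. Among them Scd1 (-0.64 ± 0.10), Scd2 (-0.65 ± 0.15) and Elovl7 (-1.38 ± 0.31) were lower, and Apoe was higher (0.68 ± 0.09). Srebf1 (0.07 ± 0.07) did not pass.

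The gap between numbers varied by group. Its median over the 7 mevalonate genes was 0.68 after IL-4 then LPS, 0.70 after LPS, 0.17 after IL-4 and 0.63 in control cells. Over the 11 sterol genes it was 0.42 after IL-4 then LPS, 0.62 after LPS, 0.20 after IL-4 and 0.44 in control cells. Over the 7 fatty acid enzymes it was -0.69 after IL-4 then LPS, -0.46 after LPS, -0.17 after IL-4 and 0.15 in control cells. Over all genes tested these medians lay between -0.02 and 0.00. With 1 library of each number in a group, these differences between groups have no replicate check. Leaving out 1 library takes its whole group from this comparison. The fits without number 1 and without number 3 of a group are therefore not separate checks. Mvd, Idi1, Lss, Cyp51, Msmo1 and Srebf2 passed in each of 8 such fits. Fdft1 was lost without either library of IL-4 then LPS, Hmgcs1, Hsd17b7 and Sqle without any library of IL-4 then LPS, LPS or control, and Mvk without any library of LPS, IL-4 or control. Elovl1 and Elovl5 passed in 3 of 8 fits, and Insig2 in none.

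**Figure D4:**
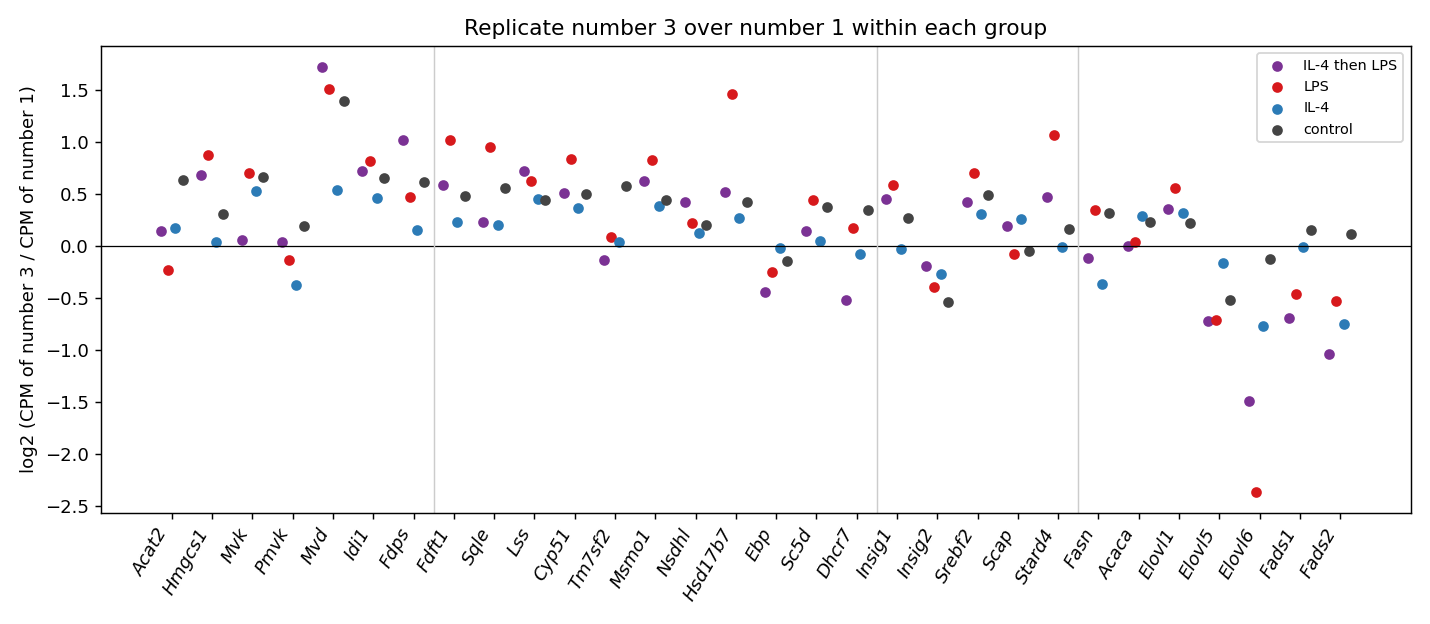
Log2 ratio of CPM in number 3 over number 1 for each of the 30 genes, with 1 point per group. Mevalonate and sterol genes lie mostly above 0, led by Mvd at 0.54 to 1.72, while Elovl5, Elovl6, Ebp and Insig2 lie below 0 in all 4 groups.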

How the data were processed

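RNA was sequenced from 8 libraries of mouse macrophages. The authors deposited raw read counts per gene, whole numbers for 54532 Ensembl genes, with symbol, position and gene length in base pairs. HISAT2, StringTie and HTSeq with the mm10 genome are named in the submitters' processing notes, without versions. Read length, strand use and handling of reads with several matches are not given in the sources used here. Counts in 6 more columns, of samples without a description in the labels, were not used here.

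Genes were kept with edgeR's filterByExpr by group (12234 genes, with 99.8% to 99.9% of counts). Another 33464 genes held no read. Libraries were scaled by trimmed mean of M-values (TMM) factors of 0.786 to 1.25, and levels are CPM on that scale. edgeR 4.0.16 (R 4.3.3, limma 3.58.1) was fitted with 1 mean per group over all 8 libraries (4 residual degrees of freedom, common dispersion 0.0402), and p-values of the quasi-likelihood test were adjusted by Benjamini-Hochberg over all genes tested, with a call at 0.05. The standard error (SE) of a log2 fold change was obtained as its size over the root of F, and is approximate. Within-number differences are log2 ratios of CPM. The comparison of number 3 with number 1 used group and number as terms (3 residual degrees of freedom).

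Members, roles and lists were chosen with earlier results of these data known. Named in each comparison were genes past the threshold, the largest and smallest value in each role, and Hmgcs1, Sqle, Insig1, Insig2, Srebf2, Fasn and Fads2. From other lists, up to 3 genes past the threshold with the largest change were named, and Srebf1, Scd1 and Scd2. Some genes that these rules name are not reported here, though the counts over lists include them. Rnf139, Apoe and the marker genes were named after their values were seen. Gene positions equal those of GENCODE M21 for 27 of the 30 genes. The fitting script was tested on simulated counts. Alternatives were library totals, upper-quartile and RLE factors, every gene with a read, DESeq2 1.42.0, the replicate block and leaving out each library.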

Additional observations from a re-analysis of the deposited data

Results flagged for a closer look

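Acat2, the cytosolic thiolase of the first mevalonate step, had IL-4 effects of opposite sign in cells without and with LPS, neither past the threshold. The log2 fold changes were 0.40 ± 0.23 (SE, edgeR adjusted p = 0.780) without LPS and -0.26 ± 0.25 (edgeR adjusted p = 0.825) with it. Acat2 held 22.7 and 20.2 CPM in IL-4 cells, against 19.8 and 12.8 CPM in control cells, in libraries 3 and 1. It held 11.4 and 10.4 CPM after IL-4 then LPS, against 12.0 and 14.1 CPM in LPS cells. Both IL-4 libraries lay above both control libraries, and both libraries of IL-4 then LPS lay below both LPS libraries. The difference between these IL-4 effects was -0.66 ± 0.34 (SE) on the log2 scale, and the interaction did not pass with edgeR's quasi-likelihood test (unadjusted p = 0.0893, adjusted p = 1).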

How the results depend on the processing

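Dhcr7, Fads1 and Fasn fell and kept their calls under every alternative run, in both arms, while the number of genes called depended on the scaling and on the spread used. For LPS against control, 4 fell and 1 rose, with 16 and 0 by library totals alone, 11 and 1 by upper-quartile factors, 8 and 2 with every gene that had a read, and 12 and 2 when the LPS effect was averaged over both arms. For LPS after IL-4 (against IL-4), 6 fell and 1 rose, with 16 and 0 by library totals, 13 and 0 by upper-quartile factors, 11 and 0 with every gene, and 7 and 0 with DESeq2. Library totals put the median of all genes at -0.62 and -0.56 on the log2 scale in these comparisons, and upper-quartile factors at -0.28 in both. By library totals, 1547 of all genes rose and 5745 fell in LPS against control, against 2663 and 2279 with TMM factors. Of all genes, upper-quartile factors gave 29% that fell and 16.7% that rose in LPS against control, and 28% and 15.7% in LPS after IL-4. With every gene, of 21068 tested, these shares were 13% and 12.9%, and 13% and 12.2%. Library totals gave 43.5% and 12.6% in LPS after IL-4, and DESeq2 16.8% and 20.6%. Of the genes called, the only direction to turn was that of Scap in LPS after IL-4, at -0.080 by library totals. With every gene, 1 gene fell in IL-4 then LPS against LPS alone, 2 rose in the averaged IL-4 effect, and 4 were lower in number 3, where DESeq2 gave 1.

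Same-numbered libraries deviated together, with correlations of 0.343 to 0.524 between groups over 12234 genes, but the labels do not say that a number marks a shared source. With number as a replicate block, 13 fell and 4 rose in LPS against control, 14 fell and 4 rose in LPS after IL-4 (of all genes 25.5% and 28.2%, and 25.8% and 26%), and 1 rose in the averaged IL-4 effect, with 3.21% of all genes. Leaving out 1 library at a time gave 3 to 6 that fell and 1 to 2 that rose in LPS against control, and 3 to 8 and 0 to 1 in LPS after IL-4. Higher in number 3 were 7 to 12, and lower 0 to 3. In every other comparison both counts stayed at 0. Where a group had 1 library left, it was assumed to vary like the other groups. The causes of these changes were not tested. Low counts limit Fdps and Elovl6 most, at 10 to 60 counts a library for Fdps and 8 to 71 for Elovl6. Fdps shares exon bases with Gm43738 on the same strand, and the reason for its low counts was not tested.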
